A study of Mus musculus with 15 samples.

Results

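The genes described are 43 DNA replication and S phase genes of the mouse, taken by symbol from a table of 17030 genes measured by bulk RNA-seq. All 43 symbols were in the table, each in 1 row, and all 43 were among the 11793 genes tested. A gene was tested when it reached 1 FPKM (fragments per kilobase of transcript scaled to the mapped fragments of the library) in at least 3 of the 15 libraries. Of the 43 genes, 31 reached 1 FPKM in every library. Another 9 did so in all progenitor, CAR and BMDM libraries and in no other, Orc1 in the progenitor and CAR libraries alone, and Mcm5 and Gins1 also in some of the control-CAR and Hoxb8 macrophage libraries. No library had a count of 0 for any of the 43 genes.

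The 15 libraries form 5 groups of 3, all from mouse bone marrow and labelled as primary cells, and the series concerns macrophages with a chimeric antigen receptor (CAR) made from myeloid progenitors. The progenitor group (cell type Progenitors, genotype WT, untreated) holds the immature cells. The BMDM group (Macrophages, WT, untreated) holds bone-marrow-derived macrophages, and the Hoxb8 macrophage group carries the same cell type, genotype and treatment labels. The CAR group (Macrophages, genotype CAR expression, CAR treated) and the control-CAR group (Macrophages, genotype Control-CAR expression, Control-CAR treated) are the remaining ones. The antigen, the vector and its promoter, the number of clones, the age and strain of the animals, the days in culture and what the control receptor lacks were not stated in the labels. Neither do they say whether replicates were separate cultures or animals, so each p-value covers only the spread among these samples, and that spread may be technical.

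A cell copies its DNA once per division. In G1 the origin recognition complex, Cdc6 and Cdt1 load rings of Mcm2 to Mcm7 onto DNA, and at the start of S phase Cdc45 and the GINS complex turn each ring into an active helicase. DNA polymerases alpha, delta and epsilon then copy the strands with the sliding clamp Pcna, while ribonucleotide reductase and thymidine enzymes supply deoxynucleotides. Many of these genes are known targets of E2F transcription factors, which cyclin E kinase activity helps to release from the retinoblastoma protein, and macrophages that have matured and left the cell cycle are known to hold them low.

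E2F factors bind short DNA elements close to the start of many replication genes, so the promoters are shown first. RefSeq promoter windows on GRCm38.p6 (250 bases before to 50 bases after a start, 300 bases in all) were matched for 35 of the 43 genes; Ccne2, Gins1, Gins2, Gins4, Mcm4, Pole, Prim2 and Rfc2 were not matched. The 4 letter strings TTTCCCGC, TTTGGCGC, TTTGCCGC and TTTCGCGC were searched on both strands, and matches could overlap. At least 1 of them stood in a window of 15 of the 35 genes (42.9%), against 457 of 9535 tested genes with a window (4.79%) and 704 of 27025 genes in the whole promoter table (2.605%). The 15 genes were Orc1, Cdc6, Cdt1, Mcm3, Mcm5, Mcm6, Mcm7, Gins3, Pola1, Pold1, Pole2, Rfc3, Lig1, Cdca7 and E2f2. The string CCAAT, searched in the same way, stood in 57.1% of the 35 genes and 43.3% of the tested genes, and TTTGAA in 14.3% and 14.7%. A match is a description of letters and not a measured binding site. Some windows lie at a start inside the gene, as for Orc1 and Cdc6, so a match can fall in transcribed bases.

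The last 170 bases before the start site used for the window are printed below, 5′ to 3′ on the strand of the gene. Mcm5 and Mcm6 are Mcm ring genes whose changes differed in CAR against control-CAR, and Cdc6 is a loader. Pola1 and Pola2 are the catalytic and the accessory subunit of polymerase alpha, which differed in how they moved. Capitals mark matches to the 4 strings on either strand. In Mcm5 2 matches share bases, and in Mcm6 3 matches cover 20 bases. The Pola2 stretch has none. For Cdc6 the RefSeq gene span begins at chr11:98907709, and for Pola1 (minus strand) it ends at chrX:93632387. Both of these stretches, with their marked matches, therefore lie inside the gene and may be transcribed. The Mcm5 (span start 75109468) and Pola2 (span end 5964238) stretches lie partly inside it.
Mcm5 (chr8:75109339-75109508, plus strand): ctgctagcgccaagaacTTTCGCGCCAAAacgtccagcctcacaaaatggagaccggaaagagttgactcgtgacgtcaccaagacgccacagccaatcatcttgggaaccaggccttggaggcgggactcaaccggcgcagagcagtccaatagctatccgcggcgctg
Mcm6 (chr1:128359706-128359875, minus strand): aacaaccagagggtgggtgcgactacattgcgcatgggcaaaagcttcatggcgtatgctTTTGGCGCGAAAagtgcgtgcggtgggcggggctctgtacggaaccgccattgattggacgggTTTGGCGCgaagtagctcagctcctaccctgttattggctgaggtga
Cdc6 (chr11:98907981-98908150, plus strand): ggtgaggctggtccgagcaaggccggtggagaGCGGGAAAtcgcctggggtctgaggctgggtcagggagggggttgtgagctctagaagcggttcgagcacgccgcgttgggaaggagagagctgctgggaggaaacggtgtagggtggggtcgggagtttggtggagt
Pola1 (chrX:93632156-93632325, minus strand): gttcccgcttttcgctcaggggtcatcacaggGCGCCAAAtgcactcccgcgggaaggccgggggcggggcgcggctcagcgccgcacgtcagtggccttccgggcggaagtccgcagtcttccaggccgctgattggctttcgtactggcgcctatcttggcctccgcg
Pola2 (chr19:5964207-5964376, minus strand): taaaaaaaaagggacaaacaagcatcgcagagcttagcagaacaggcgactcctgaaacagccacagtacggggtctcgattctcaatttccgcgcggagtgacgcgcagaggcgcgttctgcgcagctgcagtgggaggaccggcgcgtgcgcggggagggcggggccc

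The deposited values show 1 order of group means for most of the genes. By group mean, progenitor was highest, CAR next and BMDM after it, with control-CAR and Hoxb8 macrophage lowest, in 36 of the 43 genes. Single libraries of neighbouring groups overlapped for some of these genes, such as Tyms and Cdc45 between CAR and BMDM and Rfc1 and Gins3 between BMDM and the lowest groups. Added over the 43 genes, FPKM was 3477 ± 6.69 in progenitor, 990 ± 9.31 in CAR, 546 ± 14.9 in BMDM, 289.1 ± 8.999 in control-CAR and 295.9 ± 20.002 in Hoxb8 macrophage libraries (mean ± SD, n = 3 each). The range of this sum did not overlap between any pair of groups except the last pair. For the median gene the CAR mean was 24.6% of the progenitor mean, the BMDM mean 14.97%, the control-CAR mean 3.07% and the Hoxb8 macrophage mean 3.20%. No gene had a group mean under 1 FPKM in progenitor or CAR libraries, and 1 gene, Orc1, had one in BMDM libraries. In control-CAR libraries 12 genes had such a mean, and 11 in Hoxb8 macrophage libraries. In bulk samples fewer cells in S phase and less RNA per cell cannot be told apart.

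**Figure D1:**
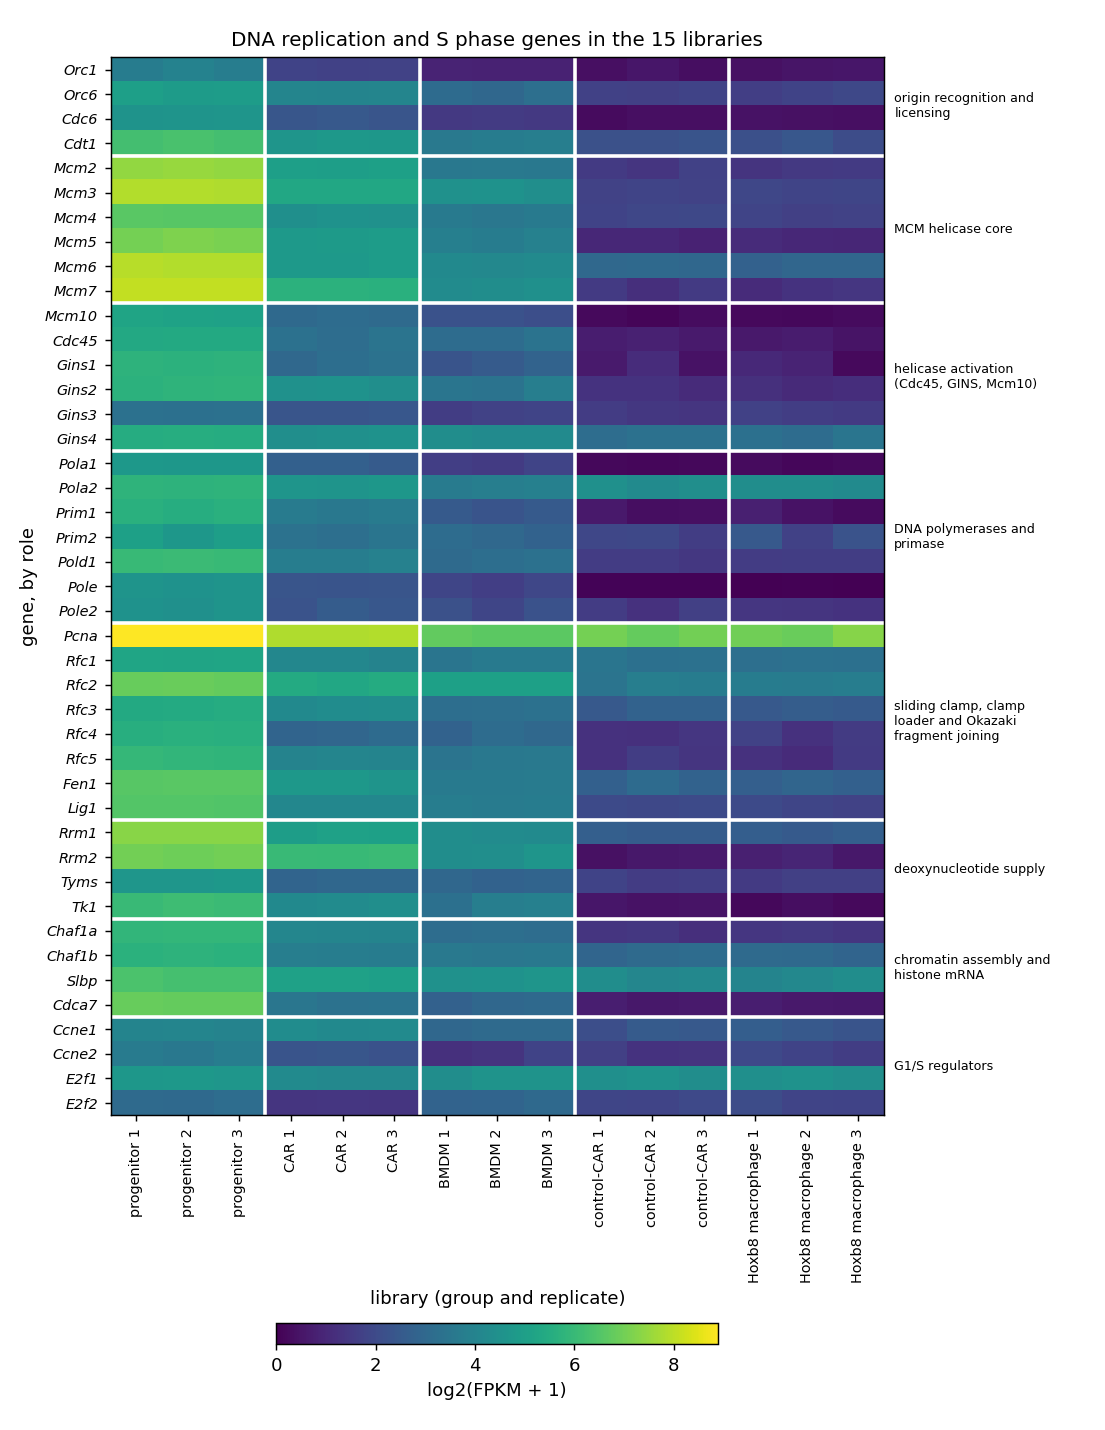
Heat map of the 43 genes (rows, by role) in the 15 libraries (columns, by group and replicate), coloured by log2(FPKM + 1), from dark (low) to yellow (high). Progenitor columns are brightest and control-CAR and Hoxb8 macrophage columns darkest for most rows, while Pcna, Pola2, Slbp and E2f1 stay visible in every group.

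Library depth and identity touch these values as follows. The libraries held 16962834 to 19221685 estimated counts. Scaling factors from TMM (trimmed mean of M values, which assumes that most genes do not change) ran from 0.824 to 1.05 in the macrophage groups and from 1.46 to 1.47 in the progenitor group, so the choice of scale moves small changes. With library totals in place of TMM the median log2 change of all genes shifted by 0.31 for CAR against control-CAR, by -0.74 for Hoxb8 macrophage against progenitor and by -0.64 for BMDM against progenitor. The 14 macrophage markers summed to 207 to 228 FPKM in progenitor libraries, with 6 of them at 0 (Mertk, Marco, Msr1, C1qa, C1qb, C1qc). Their sum was 5647 to 5802 in CAR, 12323 to 13230 in control-CAR, 12970 to 13609 in Hoxb8 macrophage and 13371 to 14633 in BMDM libraries, with C1qa at 0 in the Hoxb8 macrophage and control-CAR libraries. Markers of other cells also differed, and their sums are given with each comparison in which they moved.

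The 4 licensing genes were higher in CAR than in control-CAR and BMDM libraries, and lower in CAR, BMDM and Hoxb8 macrophage than in progenitor libraries. Values of libraries are given in the order of replicates 1, 2 and 3, and log2 changes as ± an approximate standard error (SE). This SE is the absolute log2 change divided by the square root of the F statistic of edgeR's quasi-likelihood test. Orc1, the large ATP-binding subunit of the origin recognition complex, had 12.3, 14.3 and 12.8 FPKM in the progenitor, 2.49, 2.26 and 2.4 in the CAR, 0.86, 0.82 and 0.81 in the BMDM, 0.28, 0.45 and 0.27 in the control-CAR and 0.32, 0.41 and 0.47 in the Hoxb8 macrophage libraries. Cdc6, which loads Mcm rings together with Cdt1, had 22.9, 23.3 and 23.8 FPKM in the progenitor, 4.17, 4.54 and 4.08 in the CAR, 1.78, 1.89 and 1.76 in the BMDM, 0.21, 0.28 and 0.29 in the control-CAR and 0.34, 0.33 and 0.28 in the Hoxb8 macrophage libraries. For both genes the progenitor, CAR and BMDM ranges were separate from each other, and the 2 lowest groups overlapped. Orc6, the smallest subunit of the complex, had 31.2, 28.4 and 29.3 FPKM in the progenitor, 15.7, 15.1 and 15.5 in the CAR, 7.61, 6.86 and 8.54 in the BMDM, 2.26, 2.19 and 2.46 in the control-CAR and 2.17, 2.46 and 2.84 in the Hoxb8 macrophage libraries, so that CAR kept 52.1% of the progenitor mean against 18.2% for Cdc6. Cdt1 had 75.1, 79.7 and 74.9 FPKM in the progenitor, 23.7, 25.7 and 25.3 in the CAR, 11.2, 12.4 and 13.1 in the BMDM, 3.63, 3.6 and 3.96 in the control-CAR and 3.46, 4.32 and 3.2 in the Hoxb8 macrophage libraries. Its progenitor, CAR and BMDM ranges came in the same order, above the 2 lowest groups, which overlapped. In CAR against control-CAR the log2 change was 3.73 ± 0.12 for Cdc6 and 2.43 ± 0.11 for Orc6, and in Hoxb8 macrophage against progenitor -5.37 ± 0.10 and -2.71 ± 0.10.

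The 6 Mcm ring genes, whose proteins form the helicase core in equal numbers, were highly expressed in progenitor libraries, at 96.3 to 268 FPKM by group mean. Mcm7 had 267, 269 and 268 FPKM in the progenitor, 51.1, 51 and 49 in the CAR, 18.4, 19.8 and 21.02 in the BMDM, 1.84, 1.29 and 1.85 in the control-CAR and 1.14, 1.48 and 1.67 in the Hoxb8 macrophage libraries. Mcm6 had 242, 232 and 233 FPKM in the progenitor, 27.1, 27.4 and 29.2 in the CAR, 17.6, 16.97 and 18.3 in the BMDM, 7.12, 7.27 and 6.86 in the control-CAR and 5.77, 6.69 and 6.67 in the Hoxb8 macrophage libraries. Mcm5 had 131, 144 and 136 FPKM in the progenitor, 27.2, 28.1 and 28.9 in the CAR, 13.3, 12.4 and 13.99 in the BMDM, 0.98, 1.01 and 0.8 in the control-CAR and 1.15, 1 and 0.92 in the Hoxb8 macrophage libraries. All 3 fell steeply from progenitor libraries, but Mcm6 stayed at several FPKM in the lowest groups while Mcm5 was near 1 FPKM. Mcm2 had 174, 181 and 173 FPKM in the progenitor, 31.6, 30.9 and 32.2 in the CAR, 10.8, 11.2 and 10.8 in the BMDM, 1.84, 1.59 and 2.28 in the control-CAR and 1.53, 1.75 and 1.85 in the Hoxb8 macrophage libraries. Mcm4 had 98.3, 95.1 and 95.6 FPKM in the progenitor, 20.6, 21.9 and 21.5 in the CAR, 11.5, 10.4 and 11.4 in the BMDM, 2.42, 2.72 and 2.8 in the control-CAR and 2.54, 2.24 and 2.37 in the Hoxb8 macrophage libraries, and Mcm3 lay between 20.3 and 22.1 FPKM in BMDM libraries and between 2.37 and 2.73 in the 6 control-CAR and Hoxb8 macrophage libraries. Each of these 3 genes had separate ranges in progenitor, CAR and BMDM libraries, all above the other groups. The ratio of the highest to the lowest of the 6 genes was 2.78 ± 0.0585 in progenitor, 2.36 ± 0.108 in CAR and 2.03 ± 0.0855 in BMDM libraries (mean ± SD, n = 3). It was 7.68 ± 0.776 in control-CAR and 6.33 ± 1.14 in Hoxb8 macrophage libraries, where every one of the 6 libraries (5.06 to 8.58) lay above all the others. The log2 change in CAR against control-CAR was 4.61 ± 0.09 for Mcm7, 4.60 ± 0.09 for Mcm5 and 1.66 ± 0.06 for Mcm6. Mcm6 also had the smallest change of the ring in Hoxb8 macrophage against progenitor, at -4.39 ± 0.07, where Mcm7 was at -6.69 ± 0.09.

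Helicase activation genes split into those that nearly vanished and those that did not. Mcm10, which binds the activated helicase, had 35.5, 33.7 and 33.1 FPKM in the progenitor, 7.25, 7.93 and 7.48 in the CAR, 3.69, 3.74 and 3.42 in the BMDM, 0.17, 0.09 and 0.23 in the control-CAR and 0.16, 0.14 and 0.2 in the Hoxb8 macrophage libraries. Cdc45, the helicase cofactor, had 39.8, 41.4 and 40.9 FPKM in the progenitor, 9, 8.01 and 9.82 in the CAR, 7.76, 7.77 and 9.55 in the BMDM, 0.65, 0.77 and 0.58 in the control-CAR and 0.51, 0.59 and 0.38 in the Hoxb8 macrophage libraries, with overlapping CAR and BMDM ranges. Gins1, a GINS subunit, had 52.3, 51.3 and 53.1 FPKM in the progenitor, 6.98, 8.26 and 9.26 in the CAR, 3.92, 4.87 and 6.05 in the BMDM, 0.56, 1.19 and 0.36 in the control-CAR and 1.02, 0.84 and 0.17 in the Hoxb8 macrophage libraries. These 3 genes were at or under 1.19 FPKM in each control-CAR and Hoxb8 macrophage library, where Gins1 rests on 1 to 12 and Mcm10 on 5 to 14 estimated counts a library. Gins3 had 8.88, 8.66 and 8.96 FPKM in the progenitor, 4.09, 4.07 and 4.37 in the CAR, 2.03, 2.34 and 2.52 in the BMDM, 1.97, 1.74 and 1.6 in the control-CAR and 2.26, 2.05 and 1.84 in the Hoxb8 macrophage libraries, and Gins4 44.04, 45.6 and 44.8 FPKM in the progenitor, 20.04, 20.97 and 21.9 in the CAR, 19.8, 17.98 and 17.9 in the BMDM, 8.08, 8.89 and 9.07 in the control-CAR and 8.64, 7.94 and 9.9 in the Hoxb8 macrophage libraries, so the control-CAR means were 20.04% and 19.4% of the progenitor means. Gins2 was at 53.7, 21.3, 10.8, 1.36 and 1.23 FPKM by mean in progenitor, CAR, BMDM, control-CAR and Hoxb8 macrophage libraries. It shares 70.7% of its exonic bases with Gse1 on the opposite strand, and without a stated strand setting its reads cannot be told from those of Gse1. In CAR against control-CAR the log2 change of Mcm10 was 5.16 ± 0.15, and in Hoxb8 macrophage against progenitor it was -6.76 ± 0.13.

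Among the polymerase genes the subunits of 1 enzyme did not move together. Pole, the catalytic subunit of polymerase epsilon, had 23.1, 22.3 and 23.2 FPKM in the progenitor, 4.06, 4 and 4.07 in the CAR, 2.59, 2.14 and 2.69 in the BMDM, 0.05, 0.07 and 0.07 in the control-CAR and 0.02, 0.04 and 0.02 in the Hoxb8 macrophage libraries. The lowest values rest on 6 to 8 estimated counts per control-CAR library and 2 to 5 per Hoxb8 macrophage library. Pole2, its second subunit, had 22.4, 21.1 and 23.2 FPKM in the progenitor, 3.83, 5.06 and 4.28 in the CAR, 3.59, 2.61 and 3.73 in the BMDM, 2.02, 1.4 and 2.21 in the control-CAR and 1.63, 1.62 and 1.49 in the Hoxb8 macrophage libraries. The ratio of Pole2 to Pole was 0.972 ± 0.0264 in progenitor, 1.09 ± 0.164 in CAR and 1.33 ± 0.0963 in BMDM libraries, and 30.7 ± 10.2 in control-CAR and 65.5 ± 21.9 in Hoxb8 macrophage libraries. Pole2 shares 14.4% of its exonic bases with Gm49384 on the same strand, so how the counts were split between them is uncertain.

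The subunits of polymerase alpha, which starts each new strand with primase, also differed from each other. Pola1, its catalytic subunit, had 25.5, 24.9 and 25.1 FPKM in the progenitor, 5.6, 5.64 and 4.88 in the CAR, 2.17, 1.91 and 2.55 in the BMDM, 0.14, 0.12 and 0.14 in the control-CAR and 0.2, 0.12 and 0.17 in the Hoxb8 macrophage libraries. Pola2, its accessory subunit, had 54.04, 52.7 and 54.5 FPKM in the progenitor, 23.7, 23.6 and 24.99 in the CAR, 12.1, 13 and 13.7 in the BMDM, 20.9, 18.2 and 20.2 in the control-CAR and 19.5, 19.4 and 18.1 in the Hoxb8 macrophage libraries. Pola1 was at or under 0.20 FPKM in the 6 control-CAR and Hoxb8 macrophage libraries, whereas Pola2 stayed at 18.1 to 20.9 FPKM there, above every BMDM library. Prim1, the catalytic primase subunit, had 49.3, 45.5 and 48.9 FPKM in the progenitor, 11.9, 10.9 and 11.96 in the CAR, 4.7, 3.98 and 4.72 in the BMDM, 0.54, 0.27 and 0.28 in the control-CAR and 0.7, 0.35 and 0.19 in the Hoxb8 macrophage libraries. Prim2, the large primase subunit, had 32.2, 24.99 and 30.9 FPKM in the progenitor, 9.19, 8.46 and 10.04 in the CAR, 7.75, 7.12 and 5.98 in the BMDM, 2.71, 2.76 and 2.04 in the control-CAR and 4.53, 2.29 and 3.88 in the Hoxb8 macrophage libraries. The ratio of Prim1 to Prim2 went from 1.64 ± 0.155 in progenitor to 1.26 ± 0.0584 in CAR, 0.652 ± 0.122 in BMDM, 0.145 ± 0.0511 in control-CAR and 0.119 ± 0.0605 in Hoxb8 macrophage libraries, and in the last 2 groups Prim1 rests on 4 to 15 estimated counts a library. Pold1, the catalytic subunit of polymerase delta, was at 63.4, 13.0, 8.23, 1.90 and 2.03 FPKM by mean in the same order of groups. In CAR against control-CAR the log2 change was 5.73 ± 0.15 for Pole, 4.996 ± 0.15 for Pola1 and 4.70 ± 0.21 for Prim1, and Pola2 was the only gene of the 43 not called (adjusted p 0.814, edgeR's quasi-likelihood test, Benjamini-Hochberg). Pola2 was called higher in CAR under library totals, FPKM and TPM, so its state depends on the scale.

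**Figure D2:**
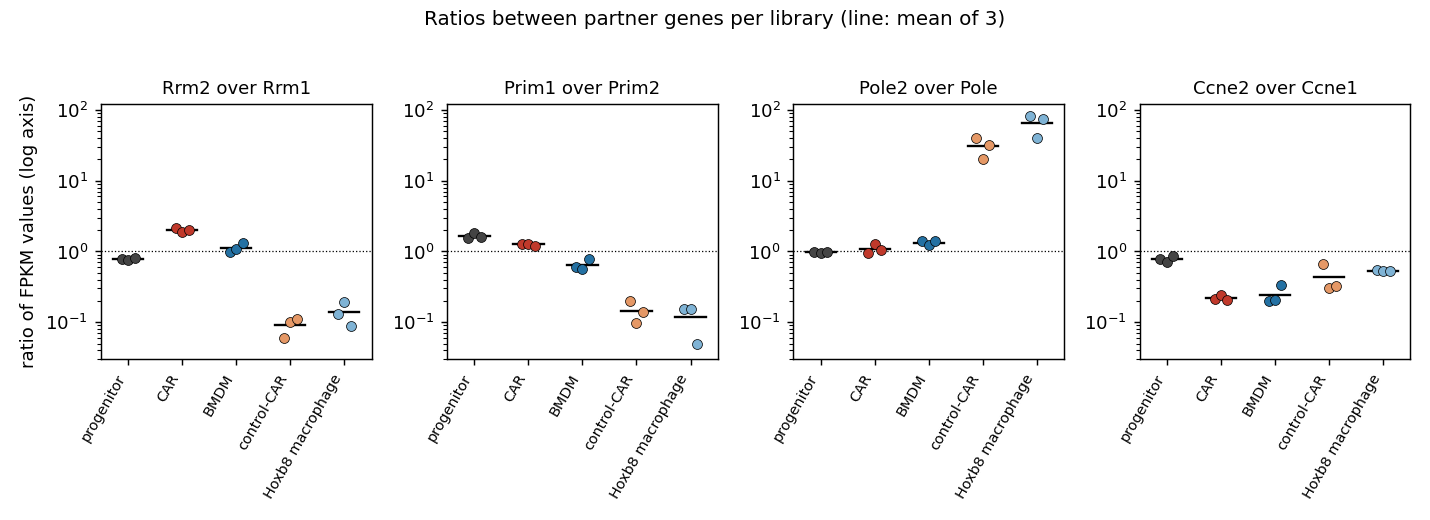
Ratio of FPKM between partner genes (Rrm2 over Rrm1, Prim1 over Prim2, Pole2 over Pole, Ccne2 over Ccne1) in each library, on a log axis with the same limits, with groups on the x axis, points for libraries and a line for the mean of 3. Pole2 over Pole is 20 or more, and Prim1 over Prim2 0.199 or less, in the control-CAR and Hoxb8 macrophage libraries.

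The sliding clamp Pcna was the most abundant of the 43 genes in every group. Pcna had 469, 472 and 475 FPKM in the progenitor, 228, 228 and 233 in the CAR, 107, 99.7 and 101 in the BMDM, 129, 111 and 128 in the control-CAR and 123, 116 and 154 in the Hoxb8 macrophage libraries, and BMDM libraries, not the other 2 groups, were lowest. Rfc1, the large subunit of the clamp loader, had 36.2, 35.2 and 36.8 FPKM in the progenitor, 16.5, 16.3 and 14.7 in the CAR, 9.98, 11.3 and 11.8 in the BMDM, 10, 8.82 and 8.94 in the control-CAR and 8.44, 8.89 and 8.77 in the Hoxb8 macrophage libraries, and the BMDM and control-CAR ranges overlapped. Rfc4, a small loader subunit, had 46.6, 48.9 and 48.1 FPKM in the progenitor, 6.3, 6.58 and 7.67 in the CAR, 6, 7.86 and 7.12 in the BMDM, 1.38, 1.35 and 1.68 in the control-CAR and 2.34, 1.43 and 1.89 in the Hoxb8 macrophage libraries. Rfc5, another small subunit, had 59.2, 57.5 and 55.8 FPKM in the progenitor, 14.9, 15.7 and 15.2 in the CAR, 9.64, 10.8 and 11.1 in the BMDM, 1.42, 2.03 and 1.58 in the control-CAR and 1.41, 1.11 and 1.88 in the Hoxb8 macrophage libraries. The small subunits fell further than Rfc1: the ratio of Rfc1 to Rfc4 was 0.754 ± 0.0302 in progenitor and 6.37 ± 0.973 in control-CAR libraries. Rfc2 had 114, 115 and 111 FPKM in the progenitor, 42.6, 39.4 and 43.3 in the CAR, 32.3, 32.5 and 31.9 in the BMDM, 9.7, 13.1 and 12.5 in the control-CAR and 12.3, 11.9 and 12.8 in the Hoxb8 macrophage libraries. Fen1, the flap nuclease that trims Okazaki fragments, had 95.4, 97.7 and 98.2 FPKM in the progenitor, 25.9, 25.8 and 23.4 in the CAR, 11.7, 11.8 and 11.98 in the BMDM, 5.6, 7.69 and 5.9 in the control-CAR and 5.52, 6.53 and 5.57 in the Hoxb8 macrophage libraries. Its exons overlap Gm10143 on the opposite strand over 78.8% of their bases, which makes its level uncertain. Smaller overlaps on the opposite strand cover 19.1% of the exonic bases of Rfc2 (Lat2), 15.4% of Rfc5 (Wsb2) and 13.4% of Rfc4 (Eif4a2). Lig1, the ligase that seals the fragments, was at 90.1, 16.5, 12.4, 2.93 and 2.66 FPKM by mean from progenitor, CAR and BMDM to control-CAR and Hoxb8 macrophage libraries, and Rfc3 at 42.9, 18.6, 8.61, 5.48 and 4.81. The log2 change in CAR against control-CAR was 2.87 ± 0.13 for Rfc5, the largest of this role.

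Deoxynucleotide genes held the largest change of CAR against control-CAR among the 43. Rrm2, the small subunit of ribonucleotide reductase that is normally made in S phase, had 127, 121 and 127 FPKM in the progenitor, 63.8, 62.5 and 65.8 in the CAR, 19.3, 20.3 and 23.7 in the BMDM, 0.32, 0.5 and 0.57 in the control-CAR and 0.7, 0.9 and 0.49 in the Hoxb8 macrophage libraries. Rrm1, the large subunit, had 160, 159 and 159 FPKM in the progenitor, 29.8, 33.01 and 32.2 in the CAR, 19.7, 18.7 and 18.1 in the BMDM, 5.4, 4.99 and 5.05 in the control-CAR and 5.27, 4.68 and 5.51 in the Hoxb8 macrophage libraries. In CAR libraries Rrm2 was above Rrm1, in progenitor libraries below it, and in control-CAR and Hoxb8 macrophage libraries Rrm2 was nearly gone while Rrm1 stayed at 4.68 to 5.51 FPKM. The ratio of Rrm2 to Rrm1 was 0.786 ± 0.0192 in progenitor, 2.03 ± 0.122 in CAR, 1.12 ± 0.166 in BMDM, 0.0908 ± 0.0280 in control-CAR and 0.138 ± 0.0519 in Hoxb8 macrophage libraries. Tk1, thymidine kinase of the salvage route, had 64.7, 69.1 and 66.2 FPKM in the progenitor, 17.7, 18.7 and 20.1 in the CAR, 8.85, 13.1 and 13.8 in the BMDM, 0.44, 0.34 and 0.39 in the control-CAR and 0.14, 0.26 and 0.16 in the Hoxb8 macrophage libraries, the low values resting on 2 to 5 estimated counts. Tyms, thymidylate synthase, had 24.7, 24.6 and 25.5 FPKM in the progenitor, 6.32, 6.76 and 6.81 in the CAR, 6.86, 6.01 and 6.35 in the BMDM, 2.46, 1.98 and 2.14 in the control-CAR and 1.82, 2.18 and 2.18 in the Hoxb8 macrophage libraries, and its CAR and BMDM ranges overlapped. In CAR against control-CAR the log2 change was 6.79 ± 0.13 for Rrm2, with adjusted p = 3.44e-18 (edgeR's quasi-likelihood test, Benjamini-Hochberg). For Tk1 it was 5.88 ± 0.21 and for Tyms 1.27 ± 0.09.

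Chromatin genes of S phase ranged from a near loss to a mild decline. Cdca7, a cofactor of the chromatin remodeller Hells, had 114, 110 and 111 FPKM in the progenitor, 10.3, 9.26 and 9.37 in the CAR, 5.78, 6.79 and 7.31 in the BMDM, 0.69, 0.49 and 0.57 in the control-CAR and 0.67, 0.53 and 0.5 in the Hoxb8 macrophage libraries. Slbp, which binds the stem loop of histone mRNA, had 82.9, 76.01 and 76.2 FPKM in the progenitor, 33.1, 32.9 and 31.3 in the CAR, 21.9, 22.1 and 23.98 in the BMDM, 19.3, 15.8 and 16.9 in the control-CAR and 15.1, 16.6 and 19.3 in the Hoxb8 macrophage libraries. Slbp was thus at or above 15.1 FPKM in all libraries, while Cdca7 was below 1 FPKM in 6 of them. Chaf1a, the large subunit of the histone chaperone CAF-1, had 57.2, 58 and 58.2 FPKM in the progenitor, 15.8, 15.3 and 15.2 in the CAR, 7.99, 8.6 and 8.15 in the BMDM, 1.62, 1.74 and 1.31 in the control-CAR and 1.64, 1.75 and 1.61 in the Hoxb8 macrophage libraries. Chaf1b, its middle subunit, had 50.8, 53.1 and 50.8 FPKM in the progenitor, 13.1, 12.7 and 12.3 in the CAR, 11.1, 10.5 and 10.8 in the BMDM, 6.46, 7.43 and 7.91 in the control-CAR and 7.35, 7.23 and 6.22 in the Hoxb8 macrophage libraries, so it kept more of its progenitor level than Chaf1a in the lowest groups. Chaf1a shares 33.6% of its exonic bases with Ubxn6 on the opposite strand, and Slbp 14.4% with Gm10459. The log2 change of Cdca7 was 3.74 ± 0.12 in CAR against control-CAR, -6.78 ± 0.10 in Hoxb8 macrophage against progenitor and -3.05 ± 0.07 in CAR against progenitor, the last being the largest of the 43 genes there.

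The G1/S regulators showed other orders of groups. Ccne1, a cyclin E that drives entry into S phase, had 15.1, 15.4 and 14.6 FPKM in the progenitor, 18.8, 17.8 and 18.03 in the CAR, 6.81, 7.5 and 7.38 in the BMDM, 3.35, 4.88 and 4.6 in the control-CAR and 5.32, 4.56 and 3.94 in the Hoxb8 macrophage libraries, and was the only gene of the 43 with its highest group mean in CAR libraries. Ccne2, the other cyclin E, had 11.9, 10.9 and 12.8 FPKM in the progenitor, 3.97, 4.26 and 3.75 in the CAR, 1.34, 1.55 and 2.44 in the BMDM, 2.23, 1.48 and 1.52 in the control-CAR and 2.89, 2.43 and 2.09 in the Hoxb8 macrophage libraries. In CAR libraries Ccne1 was above its progenitor range while Ccne2 was at 3.75 to 4.26 FPKM, well below its own. E2f1, an activator E2F, had 25.02, 25.9 and 24.5 FPKM in the progenitor, 18.1, 16.7 and 16.98 in the CAR, 19.4, 22.5 and 22.9 in the BMDM, 20.3, 22.1 and 19.5 in the control-CAR and 20.4, 22.1 and 19.9 in the Hoxb8 macrophage libraries, so that all groups lay between 16.7 and 25.9 FPKM. E2f2, a second activator E2F, had 7.36, 7.28 and 7.96 FPKM in the progenitor, 1.58, 1.67 and 1.59 in the CAR, 6.12, 6.34 and 7.13 in the BMDM, 2.61, 2.51 and 2.87 in the control-CAR and 3.2, 2.51 and 2.44 in the Hoxb8 macrophage libraries, with CAR lowest. E2f1 and E2f2 were the 2 genes called lower in CAR than in control-CAR, and E2f1 was not called there with TPM. E2f2 in CAR against BMDM had a log2 change of -2.16 ± 0.10, adjusted p = 9.64e-13 (edgeR's quasi-likelihood test, Benjamini-Hochberg), the largest in size of the 43 in that comparison.

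**Figure D3:**
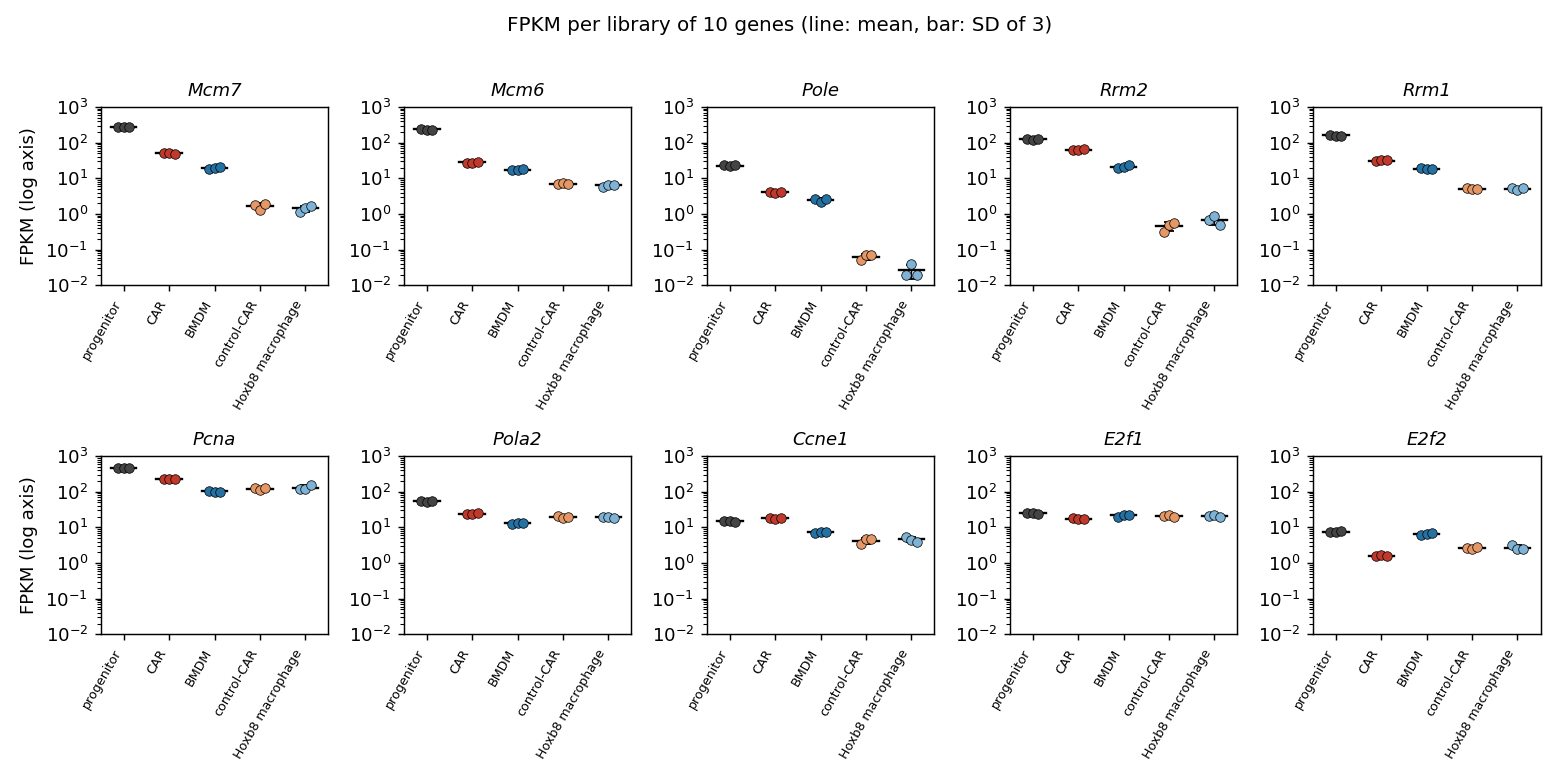
FPKM of 10 of the genes in each library, on a log axis with the same limits in each panel, with groups on the x axis, points for libraries and a line and bar for the mean and SD of 3. Mcm7, Pole and Rrm2 fall by more than an order of magnitude from progenitor to control-CAR and Hoxb8 macrophage libraries, Pola2 and E2f1 do not, and Ccne1 is highest in CAR.

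CAR against control-CAR sets cells with the receptor against cells with the control receptor. Of the 43 genes 40 were higher in CAR, 2 were lower (E2f1, E2f2) and 1 was not called (Pola2). Over all 11793 tested genes 41.9% were called higher and 36.8% lower, 78.7% in either direction, and a called gene had an adjusted p under 0.05 in edgeR's quasi-likelihood test. The FPKM ranges of the 2 groups were separate for all 43 genes, as they were for 82.1% of tested genes, so that separation alone says little about these genes. The median log2 change of the 43 was 2.43, beside 0.06 for all tested genes, and 32 genes were called with a change of at least 1 on the log2 scale. Of all called genes, 53.3% were higher with TMM, 70.8% with library totals and 80.6% with TPM. Ccne2, Gins3 and Pole2 were no longer called under quantile normalisation, where Pole2 changed sign.

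Markers of other cells moved with this comparison. The 9 measured mast cell and basophil markers summed to 3748 to 3984 FPKM in CAR and to 437 to 477 in control-CAR libraries, where Mcpt4 was at 0. Cpa3 (2149 to 2334 against 21.9 to 35.6) and Hdc (677 to 685 against 352 to 423) held most of the CAR sum. The macrophage marker sum was lower in CAR by the ranges given above. Lyz2 (608 to 619 against 4828 to 5139) and Cd14 (3138 to 3230 against 4845 to 5073) held most of the difference. Msr1 went the other way (49.2 to 49.9 against 32.6 to 33.9), as did Mertk and C1qc at under 1 FPKM. The Cd68 ranges overlapped (718 to 767 against 608 to 837). The 10 myeloid progenitor markers summed to 164 to 177 in CAR and to 14.8 to 17.1 in control-CAR libraries, far below the 3611 to 3677 of progenitor libraries. Ctsg (108 to 116 against 2.02 to 3.21) and Cd34 (38.7 to 43.8 against 1.78 to 2.09) held most of the CAR sum, while Kit was at 4.53 to 5.0 and 3.82 to 4.4. The 8 fibroblast markers summed to 51.9 to 53.3 against 16.4 to 19.1, the 8 erythroid markers to 63.4 to 74.5 against 1.62 to 3.54, and the 8 epithelial markers to 9.73 to 10.2 against 0.51 to 0.87. In CAR libraries these sums rested mainly on Col1a2 and Sparc, on Hbb-bt, and on Krt20, Krt18 and Cdh1, and the control-CAR fibroblast sum on Pdgfrb. Pdgfrb went the other way (5.58 to 5.95 in CAR against 15.27 to 18.25 in control-CAR libraries). Krt19, Klf1 and Epor, all under 1 FPKM, had overlapping ranges. The neutrophil markers summed to 416 to 458 in CAR and 1910 to 2311 in control-CAR libraries, and the B cell markers to at most 0.37 in either. Of the neutrophil list Mmp8 went the other way (174 to 181 against 65.8 to 83.3). Of the 8 T and NK cell markers only Il7r was above 0.12 FPKM in any of these libraries, at 74.3 to 76.7 in CAR and 33.9 to 44.6 in control-CAR. The part of any of these in the replication genes was not tested.

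**Figure D4:**
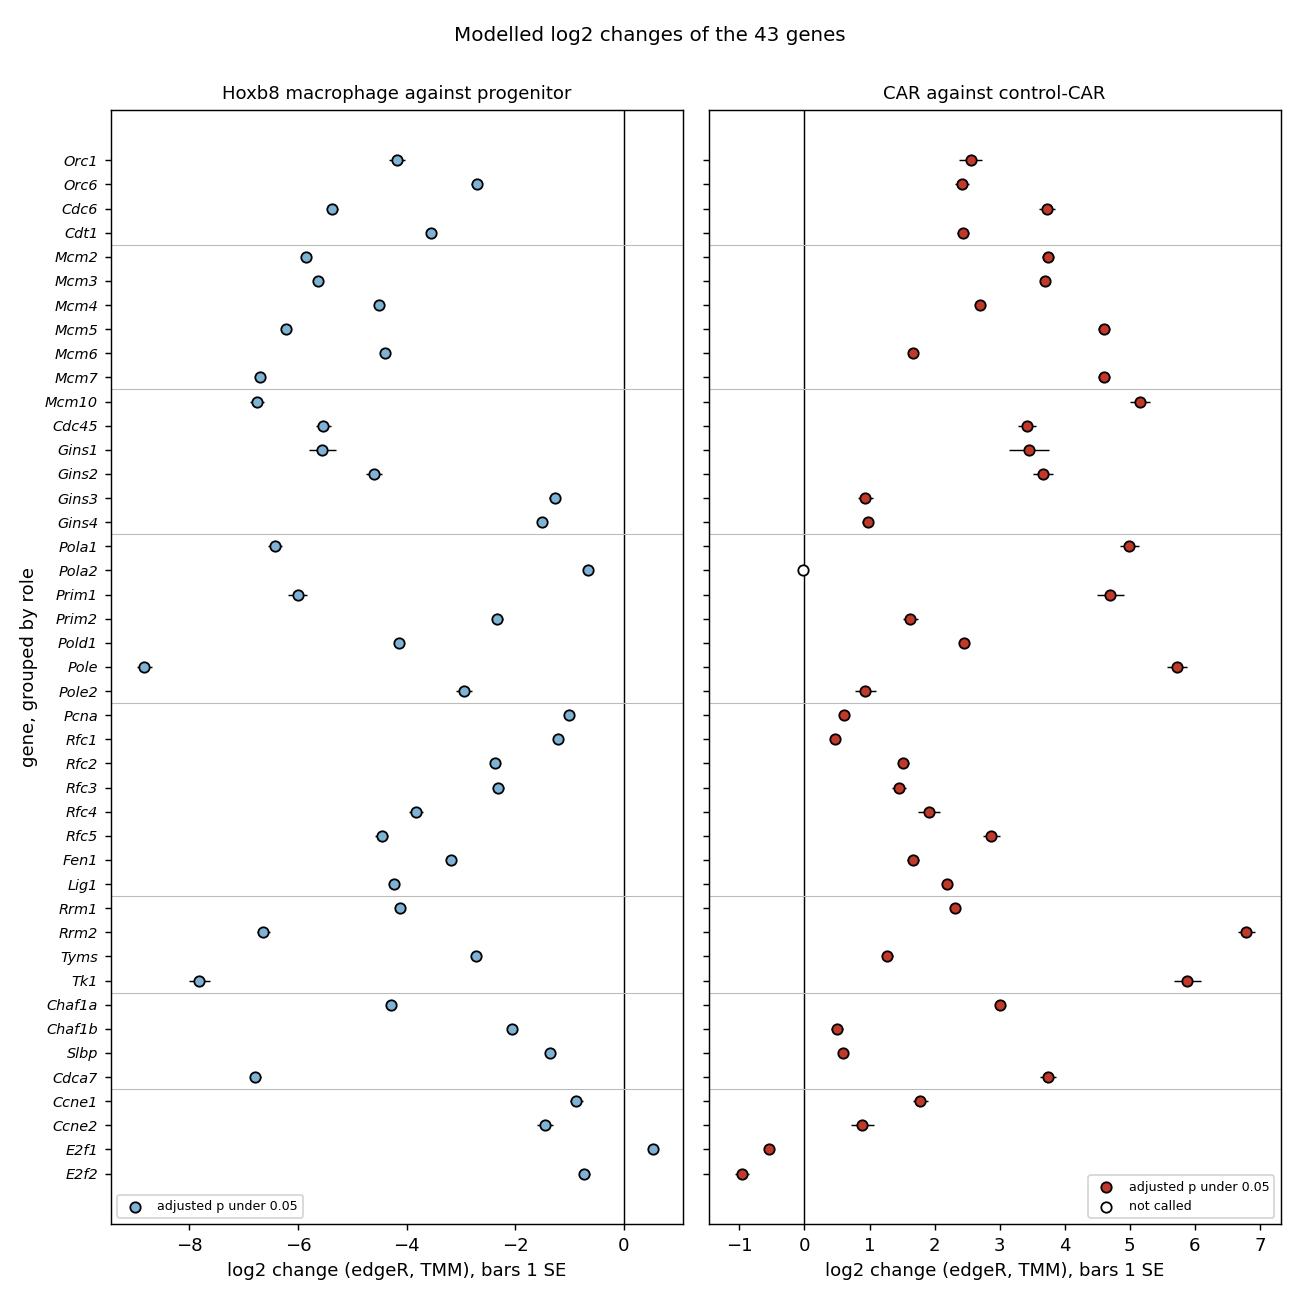
Log2 change (x axis, edgeR with TMM, bars 1 SE) of each of the 43 genes (y axis, by role) in Hoxb8 macrophage against progenitor (left) and CAR against control-CAR (right). Filled points were called and the open point, Pola2, was not; 42 genes lie below 0 on the left and 40 called genes above 0 on the right.

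Control-CAR against Hoxb8 macrophage sets cells with the control receptor against untreated ones. None of the 43 was called in edgeR's quasi-likelihood test, and 4 had an unadjusted p under 0.05. Of all tested genes 2.62% were called, 0.721% higher and 1.90% lower. DESeq2 called 0 of the 43, limma on log2(FPKM + 0.1) called 1 higher (Tk1), and quantile normalisation 1 higher (Pole). Of all called genes 27.5% were higher with TMM and 59.1% with library totals. Ranges were separate for 3 of the 43 genes, Mcm6, Pole and Tk1, and for 21.9% of tested genes. The median log2 change was -0.04 and that of all genes 0.00. Pole and Tk1 hold 2 to 8 estimated counts a library in these groups, and the edgeR test gave them adjusted p = 0.234 and 0.642, so their calls depend on the method.

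Hoxb8 macrophage against progenitor sets untreated macrophages against the immature cells. It called 42 of the 43 genes lower and 1, E2f1, higher, where 39.6% of tested genes were lower and 44.7% higher, 84.3% in all. Ranges were separate for all 43 genes and for 88.5% of tested genes. The median was -4.13 on the log2 scale, against 0.06 over all genes, and 39 genes were called with a change of at least 1 in size. Pole changed the most, at -8.83 ± 0.14, followed by Tk1 at -7.82 ± 0.20, Cdca7 at -6.78 ± 0.10 and Mcm10 at -6.76 ± 0.13. The 4 genes without such a fall were Pola2, Ccne1, E2f1 and E2f2. E2f1 was called higher with TMM but lower with library totals, FPKM and TPM, and of all called genes 53.0% were higher with TMM and 30.3% with library totals. The myeloid progenitor markers summed to 14.1 to 16.2 FPKM in Hoxb8 macrophage and 3611 to 3677 in progenitor libraries. The mast cell and basophil markers summed to 424 to 426 and 1562 to 1682. That lower sum rested mainly on Cpa3 (15.5 to 24.5 against 1239 to 1348). Hdc went the other way (363 to 394 against 267 to 293), as did Tpsb2 at a few FPKM. The Prss34 ranges overlapped (8.03 to 17.5 against 9.33 to 10.2). The neutrophil markers summed to 1378 to 1665 in Hoxb8 macrophage and 13.4 to 13.9 in progenitor libraries, where 7 of the 10 were at 0. The part of these in the result was not tested.

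BMDM against progenitor gave a shallower fall, and shares its progenitor libraries with the previous comparison. Here 41 of the 43 genes were lower and 2 higher (E2f1, E2f2), beside 40.7% and 46.6% of tested genes, 87.3% in all. Ranges were separate for all 43 and for 90.4% of tested genes. Their median change on the log2 scale was -2.06, against 0.10 over all genes, and 39 genes changed by at least 1. The largest falls were Cdca7 at -3.40 ± 0.07, Mcm2 at -3.34 ± 0.07 and Orc1 at -3.31 ± 0.13. Of all called genes 53.4% were higher with TMM and 35.1% with library totals. Both E2f genes were lower in sign with library totals, FPKM and TPM, though E2f2 was not called lower on log2(FPKM + 0.1). BMDM libraries also held B cell markers (5 genes, 29.9 to 54.2 FPKM in sum) and neutrophil markers (10 genes, 6829 to 13006), against 0.16 to 0.29 and 13.4 to 13.9 in progenitor libraries. The myeloid progenitor markers summed to 171 to 305 and the mast cell and basophil markers to 427 to 497, against 3611 to 3677 and 1562 to 1682. Of the myeloid progenitor list Elane was not lower, and its ranges overlapped (47.7 to 93.6 against 57.7 to 71.6). The lower mast cell and basophil sum rested mainly on Cpa3 (22.6 to 30.3 against 1239 to 1348). Mcpt8 (89.4 to 111 against 25.9 to 29.6) and Prss34 (160 to 208 against 9.33 to 10.2) went the other way, as did Fcer1a and Tpsb2 at a few FPKM. The Ms4a2 ranges overlapped (1.84 to 5.16 against 1.83 to 2.13). The part of these markers in the result was not tested.

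Set against BMDM directly, Hoxb8 macrophage libraries were lower for 38 of the 43 genes and higher for 3 (Pola2, Pcna, Ccne2), while Gins3 and E2f1 were not called. Of all tested genes 38.3% were lower and 32.0% higher, 70.3% in all, and of the called ones 45.5% were higher with TMM and 30.9% with library totals. Ranges were separate for 40 of the 43 and for 70.7% of tested genes. The genes had a median log2 change of -1.71, against -0.05 over all genes, with Pole at -6.28 ± 0.18, Tk1 at -5.98 ± 0.24 and Rrm2 at -4.74 ± 0.13, and 28 genes were called with a change of at least 1. The calls of Rfc1 and Slbp were lost without Hoxb8 macrophage replicate 1, at adjusted p = 0.0646 and 0.0660 in edgeR's quasi-likelihood test. Rfc1 was also lost with no filter and when only these groups were fitted. Under quantile normalisation Orc1 turned to higher, Gins3 was called higher, and Pole2, Rfc3 and Ccne1 were no longer called. With TPM Gins3 and E2f1 were called lower. Pcna and Ccne2 were no longer called with TPM, at adjusted p = 0.0805 and 0.154 in limma, and the Ccne2 ranges overlapped (1.34 to 2.44 FPKM in BMDM and 2.09 to 2.89 in Hoxb8 macrophage libraries). Marker sums differed here too: B cell markers were at 0.15 to 0.17 FPKM in Hoxb8 macrophage and 29.9 to 54.2 in BMDM libraries, neutrophil markers at 1378 to 1665 and 6829 to 13006, and myeloid progenitor markers at 14.1 to 16.2 and 171 to 305. Ranges overlapped for the neutrophil marker Ly6g (7.46 to 11.8 against 5.68 to 8.63) and the progenitor marker Kit (4.09 to 5.33 against 2.85 to 4.27). The part of these markers was not tested.

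CAR against BMDM was nearer. Here 35 of the 43 genes were higher in CAR, 2 lower (E2f1, E2f2) and 6 not called (Cdc45, Gins4, Pole2, Rfc4, Tyms, Chaf1b), where 39.2% of tested genes were higher and 37.8% lower, 76.9% in all. Ranges were separate for 40 of the 43 and for 80.1% of tested genes. The 43 had a median log2 change of 0.68, beside 0.02 over all genes, and 9 genes were called at 1 or more in size. Rrm2 was at 1.42 ± 0.07, Mcm2 at 1.35 ± 0.07, Orc1 at 1.35 ± 0.15 and Ccne1 at 1.15 ± 0.11. With library totals, FPKM and TPM, Gins4, Pole2 and Chaf1b were called higher too, and of all called genes 50.9% were higher with TMM and 62.9% with library totals. Calls near the threshold depended on single libraries and on the method. Rfc2 was lost without CAR replicate 1 or 3 or BMDM replicate 2 or 3, Prim2 without CAR replicate 3 or BMDM replicate 3, and Gins1 without CAR replicate 3 or BMDM replicate 1. Rfc4 was called lower without BMDM replicate 1. Rfc2 was also lost with DESeq2, with no filter and with the replicate number as a block, and Prim2 with DESeq2 and FPKM. Gins1 was also lost on log2(FPKM + 0.1). Quantile normalisation lost the calls of Rfc2, Prim2, Gins1 and Rfc5, and called Rfc4 and Tyms lower. Mast cell and basophil markers summed to 3748 to 3984 FPKM in CAR and 427 to 497 in BMDM libraries, macrophage markers to 5647 to 5802 and 13371 to 14633, neutrophil markers to 416 to 458 and 6829 to 13006, and B cell markers to at most 0.25 and to 29.9 to 54.2. Of the macrophage markers Cd68 went the other way (718 to 767 against 486 to 525), and the Cd14 ranges overlapped. Ranges also overlapped for the mast cell marker Prss34 (161 to 173 against 160 to 208) and the neutrophil marker Ly6g (7.98 to 10.9 against 5.68 to 8.63). The part of these differences was not tested.

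CAR libraries stayed below progenitor libraries. Of the 43 genes 41 were lower, 1 was higher (Ccne1) and 1 was not called (E2f1), beside 39.7% of tested genes lower and 45.9% higher, 85.6% in all. Ranges were separate for all 43 and for 91.8% of tested genes. For the 43 the median log2 change was -1.54, against 0.07 over all genes, and 30 genes were called with a change of at least 1 in size. After Cdca7, the largest were Mcm6 at -2.62 ± 0.06 and Rfc4 at -2.32 ± 0.10. Ccne1 was not called on log2(FPKM + 0.1) or with TPM, and E2f1 was called lower with library totals, upper quartile scaling, FPKM, TPM and quantile normalisation. Of all called genes 53.7% were higher with TMM and 37.4% with library totals. Myeloid progenitor markers summed to 164 to 177 FPKM in CAR and 3611 to 3677 in progenitor libraries, mast cell and basophil markers to 3748 to 3984 and 1562 to 1682, neutrophil markers to 416 to 458 and 13.4 to 13.9, and erythroid markers, mostly Hbb-bt, to 63.4 to 74.5 and 1.08 to 2.12. Of the neutrophil list Csf3r, which held most of the progenitor sum, went the other way (4.76 to 5.67 against 13.1 to 13.7). The part of these markers in the lower replication genes was not tested.

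**Figure D5:**
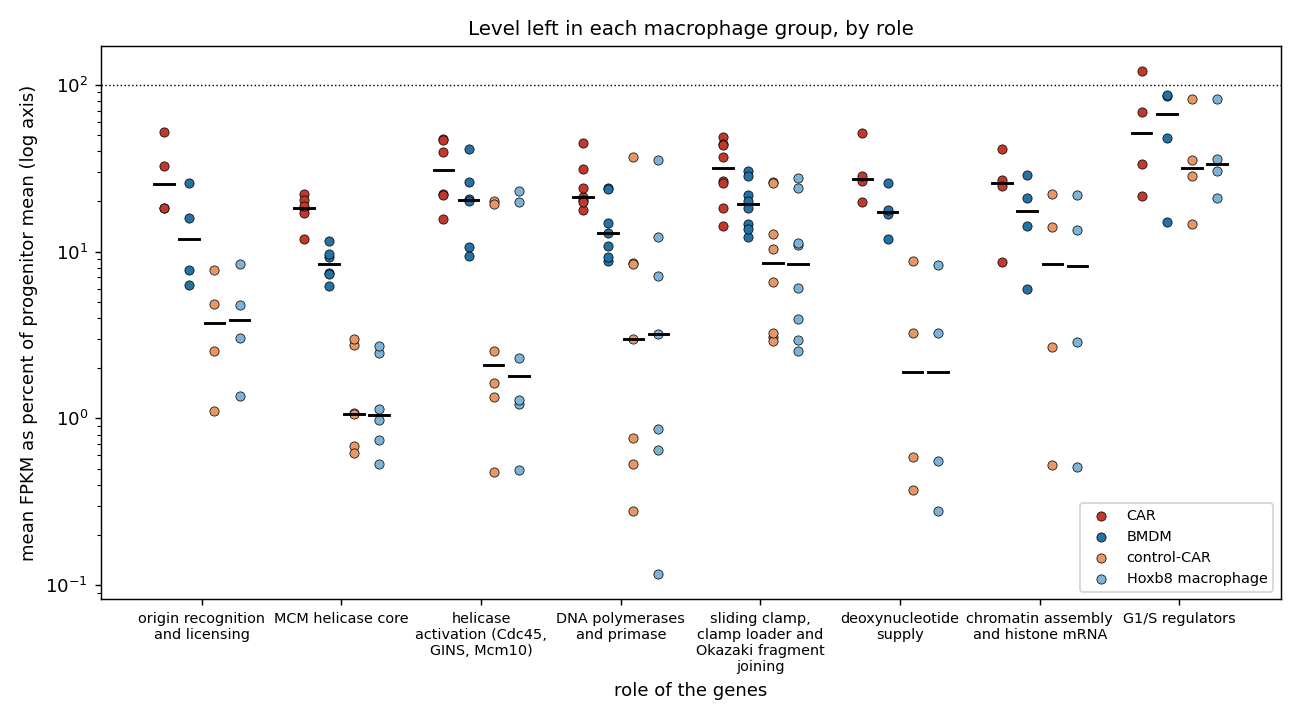
Group mean FPKM of each of the 43 genes as a percentage of its progenitor mean, on a log axis, by role on the x axis and coloured by group, with a line at the median of a role. The Mcm ring keeps a median of 18.4% in CAR, 8.38% in BMDM, 1.07% in control-CAR and 1.05% in Hoxb8 macrophage libraries, while the G1/S regulators stay highest.

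The 35 genes with a promoter window were then split by whether it held an E2F string. In CAR against control-CAR the median log2 change was 2.45 for the 15 genes with a match and 2.12 for the 20 without. In Hoxb8 macrophage against progenitor it was -4.24 and -3.51, and in BMDM against progenitor -2.71 and -1.70. Among the genes printed above, Mcm5 and Mcm6 both hold matches, and were at 4.60 ± 0.09 and 1.66 ± 0.06 in CAR against control-CAR but at -2.71 ± 0.06 and -3.09 ± 0.06 in BMDM against progenitor. Rrm2 has no match in its window. These medians are given without a test.

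Other genes of DNA replication and S phase, from lists that hold none of the 43, were called mostly in the same directions as the 43. Over all tested genes 41.9% were called higher and 36.8% lower in CAR than in control-CAR, with a median log2 change of 0.06. Of 38 further initiation and fork genes 29 were higher and 4 lower there, with a median log2 change of 0.90. Chtf18, a part of an alternative clamp loader, was at 5.73 ± 0.18, its partner Dscc1 4.46 ± 0.39 and Ticrr, an initiation factor, 4.44 ± 0.15. Of 18 nucleotide genes 16 were higher and 2 lower, led by Dctd (5.58 ± 0.18) and Shmt1 (4.39 ± 0.15). Of 15 chromatin genes 13 were higher and 1 lower, led by Uhrf1 (3.43 ± 0.07), Asf1b (3.16 ± 0.10) and Tonsl (2.57 ± 0.13). Of 21 E2F, pocket protein and kinase genes 13 were higher and 4 lower, led by cyclin A2, Ccna2 (5.90 ± 0.16), Mybl2 (5.07 ± 0.17) and Fbxo5 (4.62 ± 0.24). Of 18 checkpoint and repair genes 13 were higher and 1 lower, led by the nuclease Exo1 (4.06 ± 0.380 FPKM in CAR and 0.00667 ± 0.0115 in control-CAR libraries) and the kinase Chek1 (4.61 ± 0.26).

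In Hoxb8 macrophage against progenitor the same lists had 33 of 38, 14 of 18, 15 of 15, 17 of 21 and 18 of 18 genes lower, and 3, 4, 0, 3 and 0 higher. Over all tested genes 39.6% were lower and 44.7% higher there. The leading genes were Dscc1 (-7.37 ± 0.36), Ticrr (-6.47 ± 0.12) and Timeless (-6.16 ± 0.11) at the fork. For nucleotides they were Dctd (-7.28 ± 0.19), Shmt1 (-7.02 ± 0.13) and Dut (-4.50 ± 0.11), and for chromatin Uhrf1 (-4.99 ± 0.07), Hells (-4.30 ± 0.15) and Asf1b (-3.91 ± 0.10). In the E2F list Mybl2 (-7.24 ± 0.15), Ccna2 (-6.80 ± 0.15) and Fbxo5 (-5.54 ± 0.20) led. In the checkpoint list Exo1 went from 21.3 ± 0.477 to 0.0133 ± 0.0115 FPKM, with Chek1 at -6.19 ± 0.20 and Fancd2, a repair gene, at -6.19 ± 0.22. This comparison and CAR against control-CAR share no libraries.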

How the data were processed

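Total RNA of 15 libraries was selected with oligo(dT), primed with random hexamers and sequenced in pairs on a DNA nanoball platform, per the labels' protocols. The submitters' processing notes name HISAT2, Bowtie2, RSEM 1.3.1, DESeq2 1.4.5 and GRCm38.p6; these notes do not say which tool made which value, and no annotation or strand setting is named. The deposited table holds estimated counts, FPKM and TPM for each library, per the file headers, and 15 columns of group averages that were not used. Counts were rounded to whole numbers; among the genes described only Pold1 and Tyms had counts that were not whole.

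Genes with at least 1 FPKM in at least 3 of 15 libraries (11793 of 17030) were fitted with edgeR 4.0.16 (R 4.3.3, TMM, quasi-likelihood test, 1 mean per group, 10 residual degrees of freedom), two-sided, with Benjamini-Hochberg adjustment over all tested genes in each of 7 comparisons, and called at an adjusted p under 0.05. Alternatives used DESeq2 1.42.0, limma 3.58.1 on log2(FPKM + 1), log2(FPKM + 0.1) and log2(TPM + 1), other scalings and filters, each library left out, and the replicate number as a block. Log2 changes of the 43 genes are printed only for called changes of at least 1; libraries are given first for the genes with the largest and smallest change in each role, and in each related list the 3 called genes with the largest change are named, except for items not reported here. Names singled out for a call, a ratio or a lost call were chosen after their values were seen. The 43 genes and the lists were chosen with earlier results of these data known. The fit was tested on simulated data in which few genes changed, and in the CAR group alone. That run does not cover the choice of scale where most genes are called. Promoter windows are from RefSeq, and exon overlaps from GENCODE on GRCm38. Of the 43 genes 16 share exonic bases with another gene, 15 of them with a gene on the opposite strand. For 3 genes the share is over 20%.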

Additional observations from a re-analysis of the deposited data

How the results depend on the processing

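Each log2 change of a called gene with a size of at least 1 kept its direction and its call under all alternatives run: 32 genes in CAR against control-CAR, 39 in Hoxb8 macrophage against progenitor, 39 in BMDM against progenitor, 28 in Hoxb8 macrophage against BMDM, 9 in CAR against BMDM and 30 in CAR against progenitor. Small counts of the opposite direction moved with the scale. The number of genes higher was 0 in Hoxb8 macrophage against progenitor and 0 in BMDM against progenitor under library totals, log2(FPKM + 1), log2(FPKM + 0.1) and log2(TPM + 1), and 0 in CAR against progenitor under log2(FPKM + 0.1) and log2(TPM + 1). In Hoxb8 macrophage against BMDM it was 1 under log2(TPM + 1) and 5 under quantile normalisation. In control-CAR against Hoxb8 macrophage it was 1 under log2(FPKM + 0.1) and 1 under quantile normalisation, and the median log2 change of the genes turned to 0.000183, 0.000579 and 0.0128 under log2(FPKM + 1), log2(FPKM + 0.1) and log2(TPM + 1). The number lower was 1 in CAR against control-CAR under log2(TPM + 1) and 4 in CAR against BMDM under quantile normalisation. The cause was not tested.

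Libraries with the same replicate number did not deviate together (30 pairs, r from -0.258 to 0.0814), so the numbers were not taken as a pairing. With the replicate block, 34 in place of 35 genes were higher in CAR against BMDM, and the other counts of genes were the same: 40 higher and 2 lower in CAR against control-CAR. Depth limits the lowest genes in control-CAR and Hoxb8 macrophage libraries, with 1 to 12 estimated counts a library for Gins1, 2 to 8 for Pole, 2 to 5 for Tk1, 4 to 15 for Prim1 and 5 to 14 for Mcm10.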
